A study of Mus musculus with 8 samples.

Results

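The regulators of G-protein signaling (RGS) described here are 10 genes, Rgs1, Rgs2, Rgs4, Rgs6, Rgs7, Rgs8, Rgs10, Rgs14, Rgs16 and Rgs18, chosen by their symbols among the 54752 genes of the count tables. They were followed in the cerebral cortex of mice with chronically reduced blood flow to the brain. All 8 mice were wild-type adult male C57BL/6 mice (C57BL/6 J in the methods), and each library held the right cerebral cortex of 1 mouse, taken 3 weeks after the operation. The 4 Sham mice had the operation without coils. The 4 BCAS mice (bilateral carotid artery stenosis) had a microcoil around each common carotid artery, and the coil on the right, the side sequenced here, was the narrower one. The comparison asks how transcripts of these regulators differed in the hypoperfused cortex, with the members of neurons set against those of immune cells.

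A G protein is switched on by its receptor, which loads the alpha subunit with GTP, and it stays on until the alpha subunit hydrolyses this GTP. RGS proteins speed up the hydrolysis and so shorten the signal of receptors coupled to Gi/o or Gq. In brain, Rgs4, Rgs6, Rgs7, Rgs8 and Rgs14 are known mainly from neurons, where members of the family shorten the signals of receptors for acetylcholine, glutamate, opioids and other transmitters. Rgs1 and Rgs18 are known from leukocytes and, for Rgs18, platelets, where they limit signals of chemoattractant receptors, and Rgs10 is known from microglia, the resident macrophages of the brain. Rgs2 and Rgs16 are made in many cell types and are induced by stimulation, so they were kept apart as inducible members.

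The libraries held 16759364 to 21794435 counts. Levels are given as counts per 1000000 (CPM) after TMM scaling, whose factors lay between 0.949 and 1.05, and 3 counts in the smallest library correspond to 0.179 CPM. The quasi-likelihood test of edgeR was applied to the 17136 genes with enough counts, and a gene passed at an adjusted p (Benjamini-Hochberg) under 0.05. Log2 fold changes are given with their standard error (SE). Between 2 groups of 4 mice an exact two-sided permutation test cannot give a p under 0.0286. Across all tested genes 19.2% passed as higher and 12.8% as lower in BCAS mice, and the median log2 fold change was -0.01. The tissue label was checked against markers, and the 14 pan-neuronal markers summed to 11014 to 12588 CPM in Sham mice and 4218 to 9438 CPM in BCAS mice. All 15 microglial identity markers rose, from summed levels of 491 to 594 CPM to levels of 2291 to 8765 CPM.

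The members known from neurons and those known from immune cells had opposite signs. Of the 5 neuronal members, Rgs4, Rgs6 and Rgs7 fell in BCAS mice, whereas Rgs8 and Rgs14 had negative log2 fold changes that did not pass. Of the 3 immune members, Rgs1 and Rgs10 rose, and Rgs18 had too few counts to be tested. Both inducible members, Rgs2 and Rgs16, rose. Of the 9 members tested, 4 were thus higher and 3 were lower, next to the 19.2% and 12.8% of all tested genes that passed in these directions. Rgs1 had enough counts for the test in BCAS mice only, so that it entered the count through the group where it was high. With a further threshold of 1 on the absolute log2 fold change, Rgs1 and Rgs10 remained among the higher and Rgs4 among the lower genes, and 11.0% and 1.28% of all tested genes passed in these directions. The groups of 4 mice did not overlap for 7 of the 10 members, 4 above and 3 below Sham, whereas 18.5% of the tested genes lay above and 16.3% below without overlap, 34.8% in all. Without Sham mouse 1 the calls of Rgs4, Rgs6, Rgs7, Rgs2 and Rgs16 were lost, and Rgs1 and Rgs10 still passed.

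**Figure D1:**
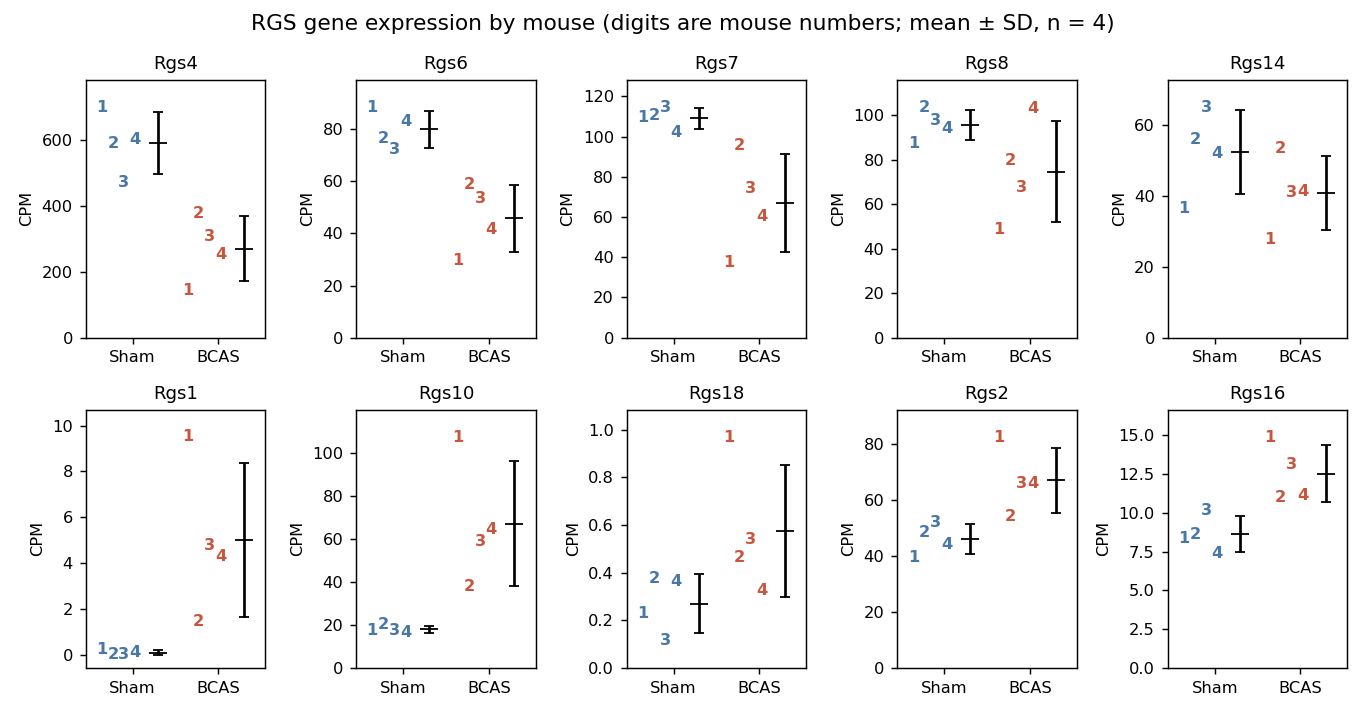
Level of each of the 10 members (CPM, linear axis starting at 0, 1 panel per gene) in the 4 Sham and the 4 BCAS mice. Digits are the numbers of the mice and are spread sideways for legibility, and the bars are the group mean and SD (n = 4). Rgs4, Rgs6 and Rgs7 were lower in every BCAS mouse than in every Sham mouse, Rgs1, Rgs10, Rgs2 and Rgs16 were higher, and the groups overlapped for Rgs8, Rgs14 and Rgs18.

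Rgs4 acts on Gi/o and Gq alpha subunits and is abundant in cortical neurons. It lies on the minus strand of chromosome 1 (mm10, 169741477 to 169747642) with 4 exon blocks after merging its transcripts. Its levels were 698, 588, 470 and 601 CPM in Sham mice 1 to 4 and 143, 375, 306 and 253 CPM in BCAS mice 1 to 4. The highest BCAS mouse lay below the lowest Sham mouse. The mean fell from 589 ± 93.6 to 269 ± 98.1 CPM (SD, n = 4 mice each), a log2 fold change of -1.13 (SE 0.27, edgeR adjusted p = 0.0157). Without Sham mouse 1, which had the highest level, the adjusted p from edgeR was 0.0506. In a bulk library, fewer cells of a type and less RNA per cell cannot be told apart, and this holds for every member below.

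Rgs4 and Rgs7 fell and Rgs2 and Rgs16 rose, and all of them lie on chromosome 1, so their promoters are shown side by side. Each is the stretch of 250 bases before the transcription start in RefSeq (assembly GRCm38.p6), written 5′ to 3′ on the strand of the gene. Capitals mark the TATA box letters TATAAA and the letters TGACG of a cAMP response element (CRE) core, on either strand, so that the reverse complements TTTATA and CGTCA count as well.
Rgs4, chr1:169747643-169747892, minus strand: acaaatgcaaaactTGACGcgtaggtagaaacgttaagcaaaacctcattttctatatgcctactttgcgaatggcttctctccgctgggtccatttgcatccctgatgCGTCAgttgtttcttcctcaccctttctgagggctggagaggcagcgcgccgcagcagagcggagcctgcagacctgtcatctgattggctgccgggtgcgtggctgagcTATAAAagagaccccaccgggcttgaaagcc
Rgs7, chr1:175492546-175492795, minus strand: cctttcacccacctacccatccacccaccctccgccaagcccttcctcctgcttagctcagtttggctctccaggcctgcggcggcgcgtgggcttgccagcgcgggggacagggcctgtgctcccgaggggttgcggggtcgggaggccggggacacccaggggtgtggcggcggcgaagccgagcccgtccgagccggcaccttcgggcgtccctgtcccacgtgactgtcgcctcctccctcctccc
Rgs2, chr1:144004150-144004399, minus strand: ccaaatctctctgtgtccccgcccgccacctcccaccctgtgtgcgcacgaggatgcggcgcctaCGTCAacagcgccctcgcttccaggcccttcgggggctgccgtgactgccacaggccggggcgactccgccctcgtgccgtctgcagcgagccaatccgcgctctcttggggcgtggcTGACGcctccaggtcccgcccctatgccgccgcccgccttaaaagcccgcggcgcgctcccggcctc
Rgs16, chr1:153740103-153740352, plus strand: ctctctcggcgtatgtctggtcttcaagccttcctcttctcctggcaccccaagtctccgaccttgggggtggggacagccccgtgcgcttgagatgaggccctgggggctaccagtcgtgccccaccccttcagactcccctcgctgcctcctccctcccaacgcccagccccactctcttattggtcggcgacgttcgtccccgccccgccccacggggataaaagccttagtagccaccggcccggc

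Counted from the start, the TATA box of the Rgs4 promoter began at position -31 and its CRE cores at positions -236 and -141. The Rgs2 promoter held CRE cores at positions -185 and -67. The windows of Rgs7 and Rgs16 held neither motif. In the gene models of the count tables, the last 12 bases of the Rgs2 window and the last 4 of the Rgs16 window are already exon. RefSeq promoters matched 7 of the 10 members, those of Rgs1, Rgs14 and Rgs18 being the ones not matched. The same letters were looked for in all 32851 promoter windows of 300 bases, which add 50 bases after the start, and 13.6% held the TATA box and 20.8% a CRE core. The palindromic CRE TGACGTCA was in 1.79% of them, the PU.1 site GAGGAAGT in 3.20%, the interferon-stimulated response element (ISRE) in 3.44% and the STAT site TTCNNNGAA in 8.30%, each read on both strands. The windows of the 7 matched members, which include 3 alternative starts of Rgs8, held none of these 4 motifs, and the only other match was a CRE core at position -46 from the first start of Rgs8. These matches describe letters and not occupied sites.

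Rgs6 and Rgs7 belong to the R7 group, whose proteins form an obligate pair with the G-protein subunit Gnb5. For Rgs6 (chromosome 12, 82588292 to 83162056, plus strand), the levels were 88.4, 76.5, 72.2 and 83.0 CPM in Sham mice 1 to 4 and 29.8, 58.7, 53.4 and 41.5 CPM in BCAS mice 1 to 4. The groups did not overlap, and BCAS mouse 1 was lowest. The mean fell from 80.0 ± 7.13 to 45.8 ± 12.9 CPM (log2 fold change -0.80, SE 0.19, edgeR adjusted p = 0.0162). Without Sham mouse 1 the adjusted p from edgeR was 0.0520.

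Rgs7 (chromosome 1, 175059087 to 175492500, minus strand) had 109.3, 110.3, 114.5 and 102.2 CPM in Sham mice 1 to 4. In BCAS mice 1 to 4 it had 37.5, 95.4, 74.2 and 60.4 CPM. All BCAS mice lay below all Sham mice, although BCAS mouse 2 was close to the lowest Sham mouse. The log2 fold change was -0.71 (SE 0.23, edgeR adjusted p = 0.0464), close to the threshold. The call was lost in 6 of the 8 fits without 1 mouse (each Sham mouse, BCAS mouse 3 or BCAS mouse 4). The highest of these adjusted p values was 0.108 (edgeR), and the log2 fold changes ran from -0.92 to -0.50. Scaling to the library size alone also lost it, at -0.62 (edgeR adjusted p = 0.0629).

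The 3 tested partners of the R7 group fell as well, a direction in which 12.8% of all tested genes passed. Gnb5, the subunit that stabilises R7 proteins, had 118.3, 125.6, 117.8 and 141.1 CPM in Sham mice 1 to 4 and 65.8, 90.5, 77.2 and 83.0 CPM in BCAS mice 1 to 4. It fell by 0.67 on the log2 scale (SE 0.11, edgeR adjusted p = 0.00462), and it passed in all 17 alternative fits. Rgs7bp, the membrane anchor of the complex, fell from 433 ± 37.7 to 261 ± 68.9 CPM (log2 fold change -0.73, edgeR adjusted p = 0.0215). Gpr158, an orphan receptor that binds Rgs7, fell from 240 ± 6.44 to 142 ± 41.7 CPM (log2 fold change -0.75, edgeR adjusted p = 0.0232). Without single mice the calls of Rgs7bp and Gpr158 were lost, at adjusted p values from edgeR of up to 0.0620 for Rgs7bp (Sham mouse 1, 2 or 4 or BCAS mouse 4) and 0.0631 for Gpr158 (these or BCAS mouse 3). The fourth partner, the photoreceptor anchor Rgs9bp, had at most 11 counts in a library and was not tested.

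Rgs8 (chromosome 1, 153653025 to 153700323, plus strand) acts on Gi/o and Gq alpha subunits. Its levels were 87.4, 103.7, 97.6 and 94.0 CPM in Sham mice 1 to 4 and 48.7, 79.7, 67.6 and 103.2 CPM in BCAS mice 1 to 4. BCAS mice 1, 2 and 3 lay below every Sham mouse, whereas BCAS mouse 4 lay among the highest Sham mice. The log2 fold change of -0.36 did not pass (SE 0.20, edgeR adjusted p = 0.182; exact two-sided permutation test of log2 CPM, p = 0.143). Leaving out BCAS mouse 4 gave -0.55 and an adjusted p of 0.0494 from edgeR, the only one of 17 alternatives in which Rgs8 passed, and leaving out BCAS mouse 1 gave -0.18.

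BCAS mouse 4 also stood out in striatal markers. The 7 markers of the striatum, which lies under the cortex, summed to 266, 501, 372 and 315 CPM in Sham mice 1 to 4 and to 401, 401, 392 and 810 CPM in BCAS mice 1 to 4. Rgs9, the R7 member known for its high expression in striatum, had 18.1, 43.4, 22.5 and 22.0 CPM in Sham mice 1 to 4 and 42.1, 25.9, 28.2 and 69.4 CPM in BCAS mice 1 to 4. Both were highest in BCAS mouse 4, and among the Sham mice both were highest in Sham mouse 2, which also had the highest Rgs8. Rgs9 did not pass (log2 fold change 0.64, SE 0.36, edgeR adjusted p = 0.193), and its value was 0.28 without BCAS mouse 4 and 0.98 without Sham mouse 2. Of the 7 striatal markers, 1 passed as higher, beside 19.2% of all tested genes, and 6 did not pass. The marker that passed was Adora2a (log2 fold change 0.99, edgeR adjusted p = 0.0460). Its call was lost without Sham mouse 1, 3 or 4 or BCAS mouse 1, 3 or 4. The part of striatal RNA in the levels of Rgs8 was not tested.

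**Figure D2:**
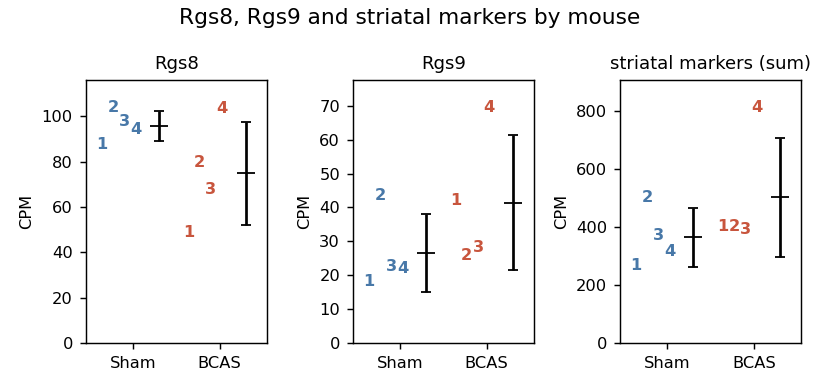
Levels of Rgs8 and Rgs9 and the summed level of the 7 striatal markers (CPM, linear axes starting at 0, 1 panel each) in the 4 Sham and the 4 BCAS mice. Digits are the numbers of the mice, and the bars are the group mean and SD (n = 4). BCAS mouse 4 was the highest BCAS mouse in each panel, at 103.2 CPM of Rgs8, 69.4 CPM of Rgs9 and 810 CPM of striatal markers.

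Rgs14 (chromosome 13, 55369732 to 55384687, plus strand), a scaffold that binds Gi alpha and Ras-family proteins, had 36.5, 55.8, 65.0 and 52.0 CPM in Sham mice 1 to 4. In BCAS mice 1 to 4 it had 27.6, 53.3, 41.0 and 41.1 CPM. The groups overlapped, with the lowest Sham mouse below 3 of the 4 BCAS mice. The log2 fold change was -0.36 (SE 0.22, edgeR adjusted p = 0.222; exact two-sided permutation test of log2 CPM, p = 0.257), and the adjusted p was at least 0.0659 in each of the 17 alternatives. The value was -0.20 without BCAS mouse 1.

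Rgs10 is the small RGS protein of microglia, where it limits inflammatory signaling. It lies on chromosome 7 (128373621 to 128418758, minus strand). Its levels were 17.5, 20.3, 17.2 and 16.5 CPM in Sham mice 1 to 4 and 107.1, 38.0, 59.0 and 64.4 CPM in BCAS mice 1 to 4. The lowest BCAS mouse was above the highest Sham mouse, and BCAS mouse 1 was highest. The mean rose from 17.9 ± 1.68 to 67.1 ± 29.0 CPM, 3.75-fold, with a log2 fold change of 1.91 (SE 0.27, edgeR adjusted p = 0.00292). Rgs10 passed in all 17 alternatives.

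Rgs1, known from lymphocytes and other activated leukocytes, lies on chromosome 1 (144242296 to 144249242, minus strand). It was near the detection limit in Sham mice, with 4, 0, 0 and 2 counts in mice 1 to 4, against 217, 28, 88 and 79 counts in BCAS mice 1 to 4. In CPM the BCAS mice had 9.54, 1.44, 4.75 and 4.30. All 4 BCAS mice were above every Sham mouse. Summed over each group, 6 counts stood against 412, a ratio per library size of 62.5 with an exact 95% interval of 28.5 to 171 that covers counting error only. The fitted log2 fold change was 5.72 (SE 0.84, edgeR adjusted p = 0.00306), and it lay between 5.21 and 6.74 with each mouse left out in turn. Rgs1 reached the filter on low counts through the BCAS mice alone, so the fitted value and its p describe a gene that had to be higher to be tested, and the counts above carry the comparison.

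Rgs18 (chromosome 1, 144752683 to 144775435, minus strand), known from platelets and myeloid cells, was close to the detection limit in both groups. It had 4, 6, 2 and 6 counts in Sham mice 1 to 4 and 22, 9, 10 and 6 counts in BCAS mice 1 to 4. The groups overlapped, and BCAS mouse 1 was highest. The summed counts of 18 and 47 gave a ratio of 2.38 (exact 95% counting interval 1.35 to 4.35), whereas the exact two-sided permutation test over mice gave p = 0.0857. A difference between the groups was thus not detectable over mice at this depth.

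Markers of other cells that hold these immune members are given beside them. The 9 T and NK cell markers summed to 0.458 to 0.909 CPM in Sham mice and to 53.4, 2.16, 32.6 and 10.7 CPM in BCAS mice 1 to 4, and Cd8a alone had enough counts to be tested. The 5 B cell markers summed to 23.0, 2.63, 16.4 and 3.65 CPM in BCAS mice 1 to 4 against at most 1.75 CPM in Sham mice, and Cd79b alone had enough counts to be tested. The 8 neutrophil and monocyte markers summed to 84.3, 3.61, 54.1 and 13.6 CPM against at most 1.66 CPM, with Ccr2 and Ly6c2 tested and the neutrophil marker Ly6g at 0 counts in every library. Cd8a, Cd79b and Ly6c2, at no more than 8 counts in a Sham mouse, reached the filter through the BCAS mice, so no count of calls is read from these lists. These sums were highest in BCAS mouse 1 and lowest in BCAS mouse 2, as were Rgs1, Rgs10 and the summed microglial markers. The 8 platelet markers summed to 4.22 to 4.99 CPM in Sham mice and 5.51 to 7.72 CPM in BCAS mice, and of the 3 tested Pf4 came closest to the threshold (log2 fold change 0.99, edgeR adjusted p = 0.0598, passing in 3 of 17 alternatives), while Gp1bb had 0 counts in every library. How much of Rgs1, Rgs10 and Rgs18 came from infiltrating leukocytes, platelets or microglia was not tested.

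Rgs2, which acts mainly on Gq alpha and is induced by many stimuli, lies on chromosome 1 (143999338 to 144004161, minus strand). Its levels were 39.7, 48.5, 52.2 and 44.1 CPM in Sham mice 1 to 4 and 82.4, 54.2, 66.0 and 65.8 CPM in BCAS mice 1 to 4. The groups did not overlap, with BCAS mouse 2 just above Sham mouse 3. The mean rose from 46.1 ± 5.42 to 67.1 ± 11.6 CPM, 1.45-fold, with a log2 fold change of 0.54 (SE 0.14, edgeR adjusted p = 0.0197). The call was lost without Sham mouse 1 or Sham mouse 4, at adjusted p values of up to 0.0617 from edgeR, and with the replicate number as a block (0.0556).

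Rgs16 (chromosome 1, 153740349 to 153745468, plus strand), an inducible regulator of Gi and Gq, had 8.35, 8.61, 10.2 and 7.36 CPM in Sham mice 1 to 4 and 14.9, 11.0, 13.1 and 11.1 CPM in BCAS mice 1 to 4. All BCAS mice were above all Sham mice. The log2 fold change was 0.54 (SE 0.15, edgeR adjusted p = 0.0281), and 10.1% of its exon bases are shared with Gm28513 on the opposite strand. The call was lost without Sham mouse 1, 2 or 4 or BCAS mouse 1 or 3, at adjusted p values of up to 0.0770 from edgeR.

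Activity-regulated genes, which respond to neuronal firing as Rgs2 is known to do, were set beside the inducible members. The 12 genes summed to 536 to 2199 CPM in Sham mice and 291 to 1105 CPM in BCAS mice, so the Sham mice spread widely and the groups overlapped. Their median log2 fold change was -0.72. Of the 12 genes, 1 passed as lower, beside 12.8% of all tested genes, and 11 did not pass. The gene that passed was Npas4 (log2 fold change -1.58, edgeR adjusted p = 0.0336). Its call was lost in 5 of the 8 fits without 1 mouse (Sham mouse 2, 3 or 4 or BCAS mouse 3 or 4). Rgs2 and Rgs16 had the opposite sign to the median of this list, which came mostly from genes that did not pass.

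The order of the levels changed as well. Between genes, levels were compared as CPM per kilobase of exon. In Sham mice Rgs4 was highest, at 190 ± 30.2 CPM per kilobase, followed by Rgs7 at 18.1, Rgs2 at 12.7, Rgs14 at 12.3, Rgs10 at 10.5, Rgs8 at 9.92, Rgs6 at 7.98 and Rgs16 at 3.69, with Rgs18 at 0.133 and Rgs1 at 0.0125. Of these neighbours, Rgs2 and Rgs14, Rgs14 and Rgs10, and Rgs10 and Rgs8 overlapped between mice. In BCAS mice Rgs4 was at 86.9 ± 31.7 CPM per kilobase and Rgs10 was next, at 39.2 ± 16.9. Rgs2 followed at 18.5, Rgs7 at 11.1, Rgs14 at 9.61, Rgs8 at 7.76, Rgs16 at 5.36 and Rgs6 at 4.57, with Rgs1 at 0.721 and Rgs18 at 0.283. All neighbours in this order overlapped between BCAS mice except Rgs6 and Rgs1. Rgs1 is annotated as 1 exon block of 6947 bases over its whole length, so that its level per kilobase is divided by a long model.

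Per kilobase, the level of Rgs4 was 22.0, 16.0, 15.1 and 20.1 times that of Rgs10 in Sham mice 1 to 4. In BCAS mice 1 to 4 the ratio of Rgs4 to Rgs10 was 0.736, 5.45, 2.86 and 2.17. In BCAS mouse 1, Rgs10 at 62.6 CPM per kilobase was the most abundant of the 10 members and Rgs4 followed at 46.1.

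The BCAS mice differed in how far the members moved. On the log2 scale against the Sham mean, Rgs4 differed by -2.05, -0.65, -0.95 and -1.22 in BCAS mice 1 to 4, Rgs10 by 2.58, 1.09, 1.72 and 1.85, and Rgs2 by 0.84, 0.23, 0.52 and 0.51. The difference was largest in BCAS mouse 1 for 10 of the 10 members, whichever its direction. It was smallest in BCAS mouse 2 for 8 of the 10, the exceptions being Rgs8 and Rgs18, where BCAS mouse 4 had the smallest one. The mean log2 level of the pan-neuronal markers differed from the Sham mean by -1.46, -0.30, -0.64 and -0.72 in BCAS mice 1 to 4, and that of the microglial markers by 3.82, 1.99, 2.81 and 2.91. Both marker levels were thus also farthest from Sham in BCAS mouse 1 and closest in BCAS mouse 2.

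**Figure D3:**
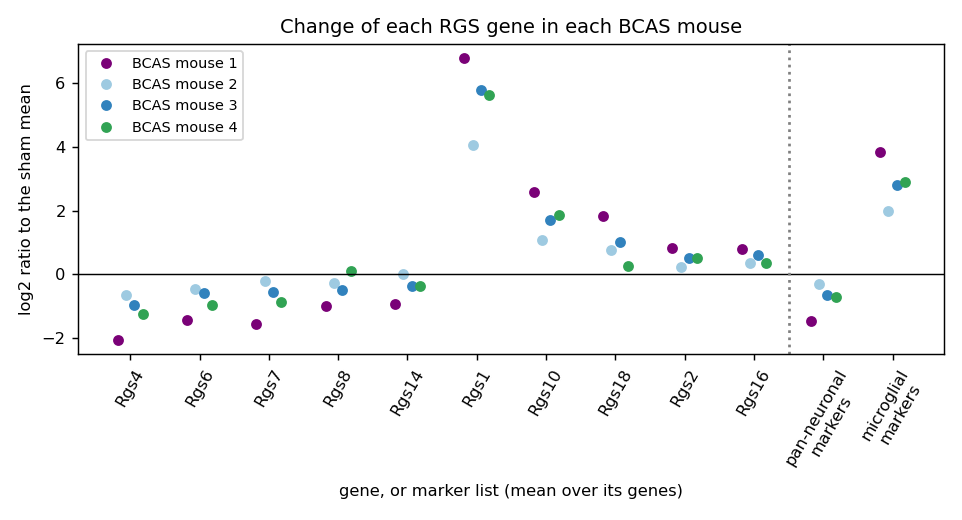
Difference of each member from its Sham mean (log2 ratio, vertical axis) in each of the 4 BCAS mice, with the mean log2 levels of the 14 pan-neuronal and the 15 microglial markers drawn in the same way. BCAS mouse 1 lay farthest from 0 for all 10 members, and BCAS mouse 2 nearest to 0 for 8 of them.

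To ask whether a member differed beyond the shift of its cell type markers, the fit was repeated with the pan-neuronal or the microglial marker level in the place of the TMM factor. Relative to the 14 pan-neuronal markers, Rgs6 had a log2 fold change of -0.07 (SE 0.17, edgeR adjusted p = 0.728) and Rgs7 of -0.01 (SE 0.16, edgeR adjusted p = 0.975). Their ratios to the neuronal markers were thus not distinguishable between the groups. Rgs4 was lower also relative to these markers, by -0.43 (SE 0.13, edgeR adjusted p = 0.0220), and only 0.251% of all tested genes passed as lower in this fit. The call for Rgs4 did not hold without Sham mouse 1, 2 or 4 or BCAS mouse 4, where the adjusted p from edgeR was between 0.0513 and 0.0764, nor without the filter on low counts, where it was 0.0526, or with the replicate number as a block, where it was 0.0716.

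Rgs8 and Rgs14 had positive values relative to the neuronal markers, 0.40 (edgeR adjusted p = 0.106) and 0.37 (edgeR adjusted p = 0.167), and neither passed. Without BCAS mouse 2, Rgs8 passed as higher in this fit, at 0.51 (edgeR adjusted p = 0.0425). Rgs1, Rgs10, Rgs2 and Rgs16 were higher, by 6.77, 2.91, 1.44 and 1.42, next to 62.5% of all tested genes and an all-gene median of 0.83, since the markers themselves were lower in BCAS mice.

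Relative to the 15 microglial markers, Rgs10 was lower, by -1.07 (SE 0.32, edgeR adjusted p = 0.00320), so that it rose less than the mean of these markers did, although P2ry12 and Sall1 rose less than Rgs10. Rgs1 was higher, by 2.69 (SE 0.73, edgeR adjusted p = 0.00151), and 1.14% of all tested genes passed in this direction. This value rests on a Sham level of 6 counts in all and on a gene that passed the filter through the BCAS mice, so it is given as a description. The other 7 tested members were lower, by -2.28 for Rgs16 to -3.69 for Rgs4. In this fit 95.0% of all genes passed as lower, with a median of -2.76, so a lower call here says little about a member. In every alternative Rgs10 kept its direction and passed relative to microglial markers.

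**Figure D4:**
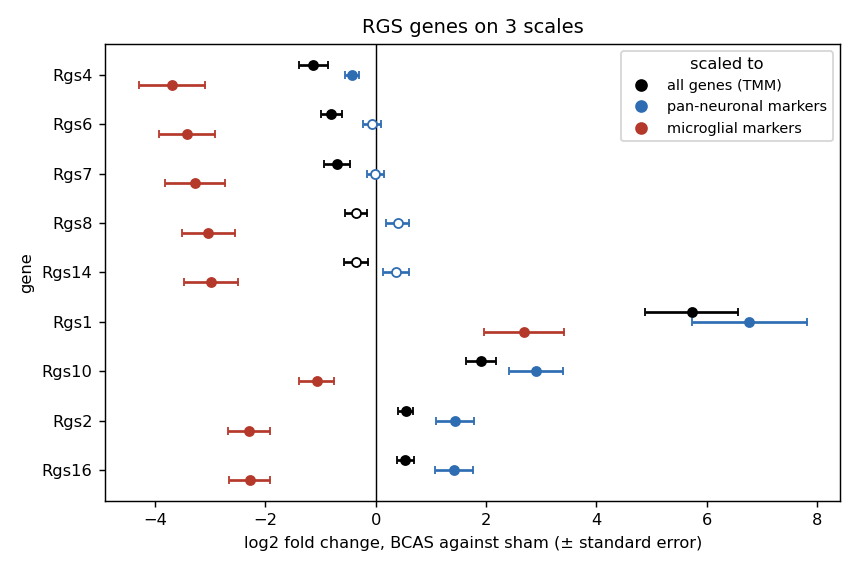
Log2 fold change of each of the 9 tested members in BCAS against Sham mice (horizontal axis) by the TMM fit and relative to the pan-neuronal and the microglial markers, with bars of 1 standard error. Filled points passed at an adjusted p under 0.05 (edgeR). Relative to neuronal markers Rgs6 and Rgs7 lay at -0.07 and -0.01 and Rgs4 at -0.43, and relative to microglial markers Rgs1 alone lay above 0.

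Other genes of the RGS family gave the context of these members. Of the 11 other family genes, 9 were tested, 3 passed as higher, beside 19.2% of all tested genes, and the median log2 fold change was 0.03. Rgs19, a Gi regulator expressed in many tissues, rose from 14.0 ± 0.765 to 24.4 ± 5.90 CPM (log2 fold change 0.80, edgeR adjusted p = 0.00964), and it passed in all 17 alternatives. Rgs3 rose by 0.48 on the log2 scale (edgeR adjusted p = 0.0434), but its call was lost in 7 of the 8 fits without 1 mouse, all but the one without BCAS mouse 2. Rgs22, known from testis, was at 14, 5, 9 and 19 counts in Sham mice 1 to 4 and 47, 43, 34 and 26 counts in BCAS mice 1 to 4. All 4 BCAS mice but not all Sham mice had enough counts, so Rgs22 too reached the filter through the group where it was high, and its log2 fold change of 1.44 (edgeR adjusted p = 0.0218) is a description. The call was lost without Sham mouse 1, 2 or 3 or BCAS mouse 3.

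Rgs5, a marker of pericytes on capillaries, had 159.6, 159.8, 136.7 and 155.5 CPM in Sham mice 1 to 4 and 189.5, 139.7, 154.4 and 142.1 CPM in BCAS mice 1 to 4. The groups overlapped, and the log2 fold change was 0.03 (SE 0.11, edgeR adjusted p = 0.840). Of 8 other pericyte markers, 5 passed as higher, beside 19.2% of all tested genes, with a median log2 fold change of 0.68. Rgs17, a brain member that acts on Gz alpha, had a log2 fold change of -0.46 (edgeR adjusted p = 0.170), which was -0.25 without BCAS mouse 1 and passed without BCAS mouse 2, at -0.67 (edgeR adjusted p = 0.0292). Rgs11, Rgs12 and Rgs20 had log2 fold changes of -0.37, -0.05 and -0.03, none of which passed. Rgs11 was at -0.24 without BCAS mouse 1, and the signs of Rgs5, Rgs12 and Rgs20 changed under some alternatives. Rgs13, with at most 25 counts in a library, was not tested, and Rgs21, a taste receptor cell gene, had 0 counts in every library.

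**Figure D5:**
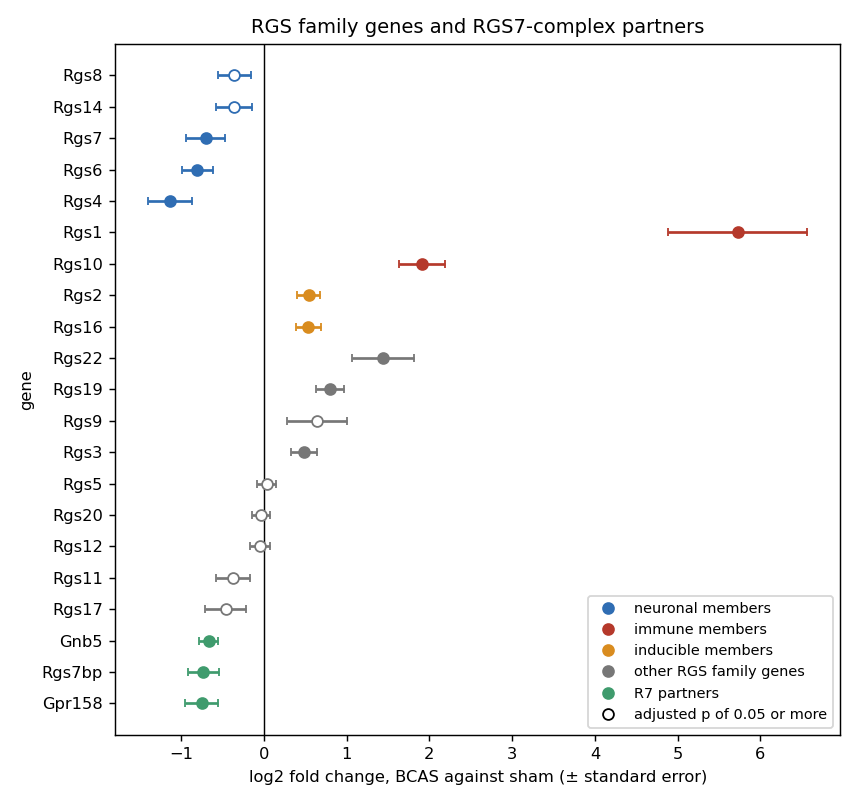
Log2 fold change in BCAS against Sham mice (horizontal axis, bars of 1 standard error, n = 4 mice each) for the tested members, the other RGS family genes and the R7 partners. Filled points passed at an adjusted p under 0.05 (edgeR), with Rgs1 and Rgs10 farthest to the right, at 5.72 and 1.91, and Rgs4 farthest to the left, at -1.13.

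The genes of the G protein subunits include alpha subunits that RGS proteins act on, those of the Gi/o and Gq classes, and others, such as Gnas, Gnal, Gna12, Gna13 and the beta and gamma subunits. Of 13 G alpha genes, 12 were tested, 5 rose and 4 fell, beside 19.2% and 12.8% of all tested genes, and Gna12 and Gna13 were among those that rose. Gna15, the Gq-class subunit of blood cells, rose most, by 3.39 (edgeR adjusted p = 0.00254), and Gnaz, the Gz subunit of neurons, fell most, by 0.71 (edgeR adjusted p = 0.0367). Of 14 beta and gamma genes, 13 were tested, 2 rose and 3 fell, beside the same 19.2% and 12.8%. Their values ran from 1.66 for Gng5 to -1.32 for Gng13, of whose exon bases 51.6% are shared with Chtf18 on the opposite strand. Gna15 and Gng5 passed in all 17 alternatives. The call for Gnaz was lost without any 1 of the Sham mice or of BCAS mice 3 and 4, and that for Gng13 without Sham mouse 1, 2 or 4 or BCAS mouse 3 or 4.

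Receptors and effectors were listed by the cells they are known from. Of 18 neuronal Gi/o and Gq receptors, 8 fell, with a median log2 fold change of -0.53 for the list, and 12.8% of all tested genes passed as lower. The values of those that fell ran from -1.10 for the muscarinic receptor Chrm3 to -0.48 for the glutamate receptor Grm3. Of 7 neuronal effectors, 4 fell, beside the same 12.8%, among them the potassium channel genes Kcnj3 at -0.96 and Kcnj6 at -0.74, and the median was -0.88. These named receptor and channel genes lost their calls without Sham mouse 1 or 4 or BCAS mouse 4, Chrm3, Grm3 and Kcnj6 also without Sham mouse 2, Grm3 and Kcnj6 also without BCAS mouse 3, and Kcnj6 also without Sham mouse 3. Over the lists of other family genes, partners and pathway genes, which leave out the 10 members, the 22 genes that fell became 5 to 9 without Sham mouse 1, 2 or 4 or BCAS mouse 3 or 4 and 32 without BCAS mouse 2. For Kcnj3, 31.1% of the exon bases are shared with Gm26794 on the opposite strand, and the counting did not use strand. Of 14 leukocyte chemoattractant receptors, 9 were tested and passed as higher, beside 19.2% of all tested genes. Their log2 fold changes ran from 1.80 for P2ry12 to 4.65 for Ccr2, whose call was lost with limma-voom (adjusted p = 0.0942). Low genes such as Ccr1, Ccr2 and C5ar1 entered this count largely through the BCAS mice. A further 5 genes had too few counts, so the count does not describe the whole list. Of this list Cx3cr1, P2ry12 and P2ry13 are also microglial identity markers and Ccr2 is a monocyte marker. These fold changes are set beside an all-gene median of -0.01, and 9 of the 14 pan-neuronal markers fell, with a median of -0.71. That count was 5, 2, 1 and 1 without Sham mouse 3, 2, 1 or 4, 2 without BCAS mouse 3 or 4, and 14 without BCAS mouse 2.

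Several members are neighbours on the genome. Of the 10 members, 7 lie on chromosome 1, where 6.24% of the tested genes lie. Rgs2, Rgs1 and Rgs18 follow each other on the minus strand at distances of 238.13 and 503.44 kilobases, with Rgs13 and Rgs21 between them. Rgs8 and Rgs16 are 40.025 kilobases apart on the plus strand. Of this last pair, Rgs16 rose and Rgs8 had a negative log2 fold change that did not pass, so that these neighbours had opposite signs.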

How the data were processed

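RNA of the right cerebral cortex was sequenced from 4 Sham and 4 BCAS mice, which the labels name, with 1 mouse per library. According to the methods and the labels, Trim Galore was used for trimming, HISAT2 for the alignment of the read pairs to mm10 and SAMtools 1.9 for sorting. The authors deposited raw counts of fragments on the exons of each gene, made with featureCounts. Per the file headers, featureCounts 2.0.1 was run on GENCODE genes without a strand option, whereas the submitters' processing notes name version 1.6.3. Counts from overlapping genes on opposite strands therefore cannot be told apart.

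Symbols were matched by gene ID for 54723 of the 54752 genes, and coordinates and exon lengths came from the count tables. From the deposited counts, CPM values were computed with TMM scaling in edgeR 4.0.16 (R 4.3.3). Genes were filtered with filterByExpr (minimum count 10, minimum total 15) and tested with edgeR's quasi-likelihood test of BCAS against Sham mice, with no covariate and with Benjamini-Hochberg adjustment over the 17136 genes tested. Fits relative to cell type markers used the mean log2 CPM of the marker list (pseudocount of 0.01 CPM) as the offset. Exact two-sided permutation tests of log2(CPM + 0.5) ran over the 70 arrangements of the mice. The alternatives were DESeq2 size factors, upper quartile or library size alone, either no filter beyond 1 count or a minimum of 10 counts in all libraries, other tests (limma-voom and limma on log2(CPM + 1) from limma 3.58.1, and DESeq2 1.42.0), the replicate number as a block, and each mouse left out in turn. For the relative fits the summed marker CPM was also tried. The procedures were tested on simulated data. Promoters came from RefSeq (GRCm38.p6), and Python 3.11.15 with matplotlib 3.10.9 drew the figures.

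The text names the 10 members, the other family genes and partners, and of each pathway list the passing genes with the highest and the lowest log2 fold change. Marker genes are named where a result is set beside them. The members, the lists and the split by cell type were chosen with earlier results of these data known, so counts over them are descriptions.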

Additional observations from a re-analysis of the deposited data

Results flagged for a closer look

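In 128 groups of 4 mice examined, 3 held a mouse that stood apart from the other mice by Dixon's test, where chance alone flags about 1 in 20 groups. The summed level of the 7 striatal markers was 809.8 CPM in BCAS mouse 4, against 392.4 to 401.3 CPM in the other BCAS mice, and the same mouse had the highest Rgs8 and Rgs9 of its group. Kcnj6 was at 25.69 CPM in Sham mouse 1 and at 20.36 to 21.0 CPM in the other Sham mice. The summed level of the 6 oligodendrocyte markers was 3776 CPM in Sham mouse 3 and 5816 to 6076 CPM in the other Sham mice.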

How the results depend on the processing

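Rgs1 and Rgs10 kept their direction and passed in every alternative that tested them, Rgs1 through the BCAS mice that brought it past the filter. Scaling to the library size alone gave 3984 higher and 1294 lower genes, against 3291 and 2199 with TMM, and lower calls for 5 of the 14 pan-neuronal markers. In the fits without 1 mouse, the count over all tested genes lay between 2131 and 4491 for higher and between 418 and 3675 for lower ones, with the lowest values without Sham mouse 1 and the highest without BCAS mouse 2. Over the same fits, 2 to 4 members were higher and 0 to 3 lower, 5 to 32 genes of the family and pathway lists, members left out, were lower, 1 to 14 pan-neuronal markers were lower, and 0 to 1 members were lower relative to these markers. Without the filter on low counts 0 members were lower relative to pan-neuronal markers (Rgs4, adjusted p = 0.0526 from edgeR), and with at least 10 counts in every library 0 were higher relative to microglial markers, since Rgs1 was then not tested. The sign of the log2 fold change changed for Rgs5 (-0.060 to 0.097 without 1 mouse), Rgs12 (0.040 with library size alone, -0.14 to 0.023 without 1 mouse), Rgs20 (0.058 with library size alone, -0.12 to 0.035 without 1 mouse) and Rgs7 relative to pan-neuronal markers (0.044 with summed markers, -0.044 to 0.053 without 1 mouse). The fits without 1 mouse also had fewer mice, and the cause of these changes was not tested.

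The correlations of same-numbered Sham and BCAS mice in their deviations from the group means were -0.05, -0.10, -0.01 and 0.00. Those of mice with different numbers ran from -0.11 to 0.12. With 4 mice per group, these values cannot decide whether the replicate numbers pair the libraries. With the replicate number as a block, 1127 genes were lower in BCAS mice, as were 14 genes of the family and pathway lists and 4 pan-neuronal markers. Of the members, 3 were higher with the block, Rgs2 being lost, and 0 were lower relative to pan-neuronal markers, with an adjusted p of 0.0716 from edgeR for Rgs4. The calls of Rgs3, Rgs22, Gnaz, Grm3, Kcnj6 and Adora2a were also lost with the block, at adjusted p values from 0.0522 to 0.0884 from edgeR, and that of Rgs3 with limma-voom (0.0551).

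Depth limited Rgs18, Rgs13 and Rgs9bp, which were not tested, and with 4 mice per group the calls of Rgs7 and Rgs16 lay close to the threshold.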
